A study of Mus musculus with 4 samples.

Results

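The genes described here are 9 transcription factor genes of the circadian clock, taken by symbol from the 17778 genes of the deposited table, and all 9 were found. They were Arntl, Clock and Npas2, the positive arm of the clock; Dbp, Tef and Hlf, activators of the PAR bZIP family; Nfil3, a bZIP repressor; and Bhlhe40 and Bhlhe41, repressors of the bHLH-Orange family. Messenger RNA had been sequenced from the medial prefrontal cortex (mPFC) of C57BL/6 mice, an inbred laboratory strain (C57BL/6J in the study's methods). The control group (2 libraries) was juvenile male mice that lived without stress. The CUMS group (2 libraries) was male mice of the same age that went through 3 weeks of chronic unpredictable mild stress and then met the criteria of a depression-like state in all behavior tests, which some of the stressed mice did. The stressors included isolation, strobe light and disturbance of the circadian cycle, and both groups were tested in the same assays and dissected a day later. The hour of dissection was not given in the sources used here.

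In the clock of mammalian cells, BMAL1, the product of Arntl, pairs with CLOCK or with its relative NPAS2 and switches on genes that carry an E-box in their DNA. Among the genes driven in this way are repressors of the same pair and the output factors Dbp, Tef and Hlf, which carry the rhythm to further genes through an element named the D-box. NFIL3 represses at the D-box, and BHLHE40 and BHLHE41 (also DEC1 and DEC2) repress at the E-box. Transcripts of Dbp swing strongly over the day in most tissues, and in the forebrain NPAS2 can stand in for CLOCK.

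The table held 1 mean per gene and group, as RPKM, a read count divided by gene length and by library depth, and no value of a single library. The differences below therefore have no replicate check within these data and no p-value, since the variation among mice is unknown. Of the genes named further on, the study measured Nr1d1, Hbb-b1, Gad1 and Mbp by quantitative RT-PCR as well. It ran these measurements on the tissues used for the sequencing and reported the same directions as found here, so that they are no independent check. None of the 9 genes was among those it measured in this way. The 95% intervals given are counting intervals, computed from the estimated number of sequenced fragments behind each mean. They cover counting error only. Each control library held an estimated 7385524 fragments and each CUMS library 7440476. For the 14257 genes that reached 0.5 RPKM in a group, the median log2 ratio of CUMS over control was -0.015, and over those of at least 5 RPKM the middle 90% of log2 ratios ran from -0.33 to 0.27. In tissue RNA, fewer cells of a type and less RNA per cell cannot be told apart.

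Of the 9 genes, Dbp and Nfil3 stood farthest from equal levels, and in opposite directions. Dbp was 1.38-fold higher in CUMS (counting interval 1.29 to 1.47), and Nfil3 was 1.55-fold lower (1.22 to 1.97). The other 7 genes differed by at most 1.14-fold. The positive arm as a whole was close to equal in both groups, with Clock slightly lower in CUMS.

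Levels, which RPKM puts on a scale per length so that genes can be compared, spanned more than 1 order of magnitude. Tef was the most abundant of the 9 transcripts, at 144.5 RPKM in control and 137 RPKM in CUMS, above 97.4% and 97.1% of the genes of the table. Next came Dbp at 62.8 and 86.4 RPKM, Bhlhe40 at 45.7 and 48.7 RPKM, and Hlf at 30.7 and 31.9 RPKM. These were followed by Npas2 (16.3 and 15.9 RPKM) and Arntl (10.2 and 10.2 RPKM), and then by Bhlhe41 (6.89 and 7.07 RPKM). The order of these 7 genes was the same in both groups, and among them no neighbours had overlapping counting intervals. Nfil3 and Clock took the last places. Nfil3 was above Clock in control (6.15 against 4.88 RPKM) and below it in CUMS (3.98 against 4.27 RPKM), but the intervals of the pair overlapped in both groups, as did those of Bhlhe41 and Nfil3 in control.

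**Figure D1:**
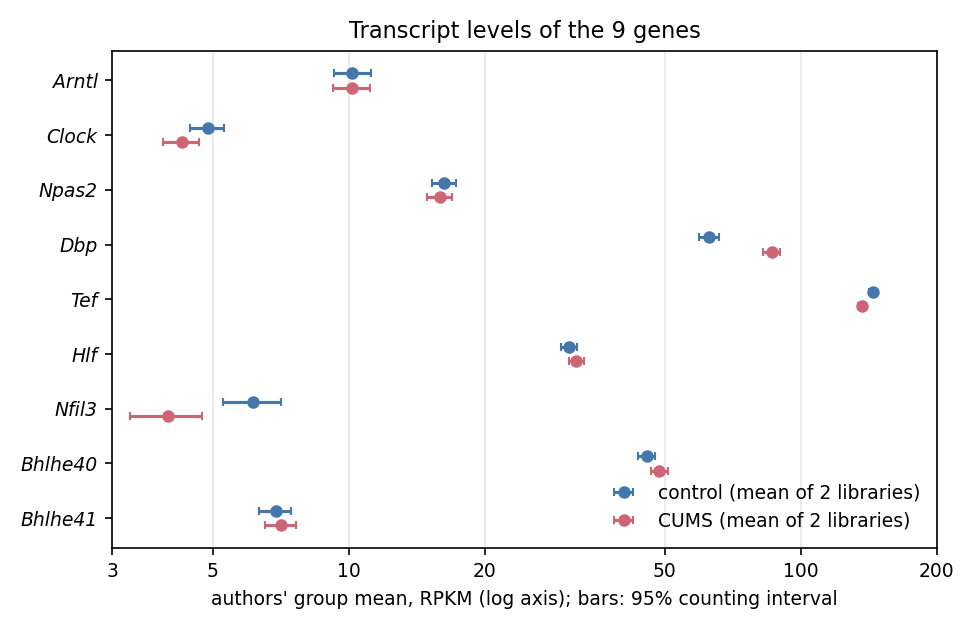
Authors' group means of the 9 genes in RPKM on a log axis, control in blue and CUMS in red, each the mean of 2 libraries, with bars for the 95% counting interval. The intervals of the groups lie apart for Dbp, with CUMS higher, and for Tef and Nfil3, with CUMS lower.

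The PAR bZIP genes make activators that bind the same element, so that their transcripts were first taken one by one and then as a sum. Dbp (gene 13170, chromosome 7, 45705100 to 45710203) had 62.8 RPKM in control (1556 fragments over both libraries; interval 59.7 to 66.0) and 86.4 RPKM in CUMS (2156 fragments; 82.7 to 90.1), a difference of 23.6 RPKM. The log2 ratio was 0.46 (0.37 to 0.55). Among 9397 genes of at least 5 RPKM, 75 had a higher ratio. Among the 1796 genes whose level lay within 2-fold of that of Dbp, 6 had a higher ratio (0.334%). These were the globin genes Hba-a2 (1.00 on the log2 scale) and Hbb-b1 (0.70), the clock repressor Nr1d1 (0.66), and Flot2 (0.61), C1ql3 (0.56) and Nov (0.52), a list that was drawn up after the values had been seen. Of these, Hba-a2, Hbb-b1, Nr1d1 and Flot2 are among the raised genes that the study reported from these libraries.

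Tef (gene 21685, chromosome 15, 81802673 to 81826863) had 144.5 RPKM in control (9008 fragments) and 137 RPKM in CUMS (8583 fragments). Its log2 ratio of -0.08 had the narrowest interval of the 9 genes (-0.12 to -0.04), which lay under 0 although the difference was 1.06-fold. Hlf (gene 217082, chromosome 11, 90336535 to 90390917) had 30.7 RPKM (2570 fragments) and 31.9 RPKM (2688 fragments), a log2 ratio of 0.05 whose interval held 0 (-0.02 to 0.13). Dbp thus parted from both of its relatives. Its log2 ratio exceeded that of Tef by 0.54 (0.44 to 0.64) and that of Hlf by 0.41 (0.28 to 0.53), where these intervals of a difference between genes are normal approximations from the fragments. Tef was below Hlf by -0.13 (-0.22 to -0.05).

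Summed over Dbp, Tef and Hlf, the PAR bZIP level came to 238 RPKM in control against 255 RPKM in CUMS, a log2 ratio of 0.10 (0.06 to 0.14). Without Dbp, the sum was lower in CUMS, at 169 RPKM against 175 RPKM in control. The share of Dbp in the sum was 26.4% in control and 33.9% in CUMS, that of Tef was 60.7% and 53.6%, and that of Hlf was 12.9% and 12.5%.

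**Figure D2:**
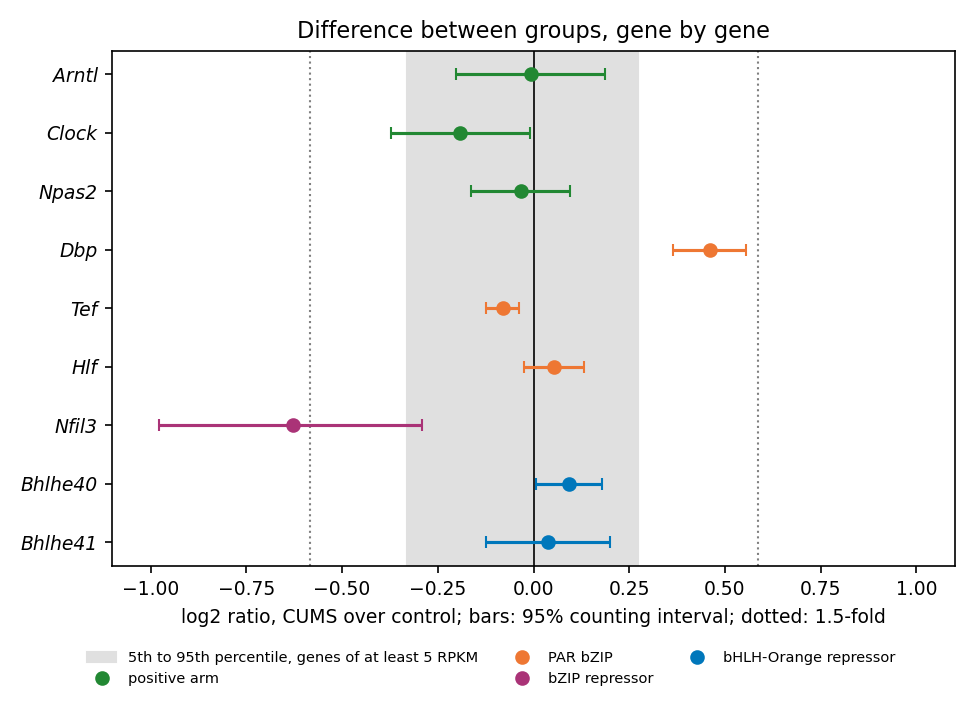
Log2 ratio of CUMS over control for each gene, colored by role, with bars for the 95% counting interval; the grey band spans the 5th to 95th percentile of genes of at least 5 RPKM (-0.33 to 0.27) and the dotted lines mark 1.5-fold. Dbp at 0.46 and Nfil3 at -0.63 lie outside the band, and the other 7 genes lie inside it.

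Nfil3, the repressor at the same element (gene 18030, chromosome 13, 52967209 to 52982878), had 6.15 RPKM in control (183 fragments; interval 5.28 to 7.09) and 3.98 RPKM in CUMS (119 fragments; 3.28 to 4.74). The log2 ratio was -0.63 (-0.98 to -0.29). Among the 14257 genes of at least 0.5 RPKM, 544 had a lower ratio, and among the 4320 genes whose mean level lay within 2-fold of its own 105 had one (2.43%). The value rests on 302 fragments in all, the fewest of the 9 genes, so that its interval was the widest. 

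Against 1 unit of Nfil3, control libraries held 38.7 units of PAR bZIP transcript and CUMS libraries held 64.1. This ratio was 1.66-fold higher in CUMS (log2 0.73, interval 0.39 to 1.06). For Dbp alone, the ratio to Nfil3 was 10.2 in control and 21.7 in CUMS, a log2 difference of 1.09 (0.74 to 1.43). Dbp and Nfil3 had the highest and the lowest log2 ratio of the 9 genes, and 11 pairs were computed. The interval takes no account of this. Nfil3 carried most of the difference in the summed ratio, since the PAR bZIP sum itself differed by 1.07-fold. In the ratio of Dbp to Nfil3 both genes took part, with log2 ratios of 0.46 for Dbp and -0.63 for Nfil3. All of these values concern transcripts and say nothing of the proteins.

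**Figure D3:**
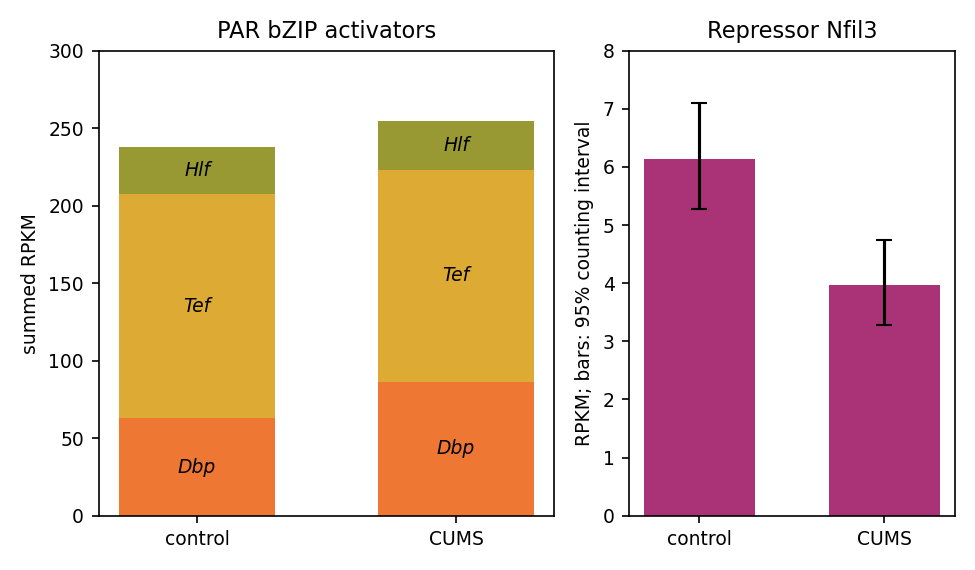
Left, stacked group means of Dbp, Tef and Hlf in RPKM, summing to 238 in control and 255 in CUMS; right, the group means of the repressor Nfil3 in RPKM with bars for the 95% counting interval. Dbp is 62.8 RPKM in control against 86.4 RPKM in CUMS, and Nfil3 is 6.15 RPKM in control against 3.98 RPKM in CUMS.

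In the positive arm, Arntl (gene 11865, chromosome 7, 113178471 to 113314126) had 10.19 RPKM in control (440 fragments) and 10.15 RPKM in CUMS (441 fragments), a log2 ratio of -0.0057 (-0.20 to 0.19). Its interval allows differences of up to about 1.15-fold in either direction. Npas2 (gene 18143, chromosome 1, 39193702 to 39363240) had 16.3 RPKM (1004 fragments) and 15.9 RPKM (988 fragments), a log2 ratio of -0.03 (-0.16 to 0.09). Clock (gene 12753, chromosome 5, 76209868 to 76305603) had 4.88 RPKM (538 fragments) and 4.27 RPKM (475 fragments), which was 1.14-fold lower in CUMS. The log2 ratio of Clock was -0.19, and its interval of -0.37 to -0.01 only just lay under 0. The interval held 0 once the median log2 ratio of all genes was set to 0 (-0.36 to 0.0055) and at 0.5 times the estimated depth (-0.45 to 0.07).

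Npas2 was the more abundant partner of BMAL1 in this tissue at the transcript level. It exceeded Clock by 3.33-fold in control and by 3.72-fold in CUMS. Summed, the transcripts of both partners came to 21.1 RPKM in control and 20.2 RPKM in CUMS, or 2.07 and 1.99 for each unit of Arntl. The log2 ratios of the 3 genes could not be told apart within counting error. Arntl exceeded Clock by 0.19 with an interval of -0.08 to 0.45, and Npas2 exceeded Clock by 0.16 with an interval of -0.06 to 0.38.

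The bHLH-Orange repressors differed little between groups. Bhlhe40 (gene 20893, chromosome 6, 108660629 to 108666925), which neuronal activity also induces, had 45.7 RPKM in control (2100 fragments) and 48.7 RPKM in CUMS (2256 fragments). Its log2 ratio of 0.09 had an interval of 0.01 to 0.18, and after CUMS had been rescaled to an equal total the interval held 0 (-0.0013 to 0.17). Bhlhe41 (gene 79362, chromosome 6, 145858243 to 145865420) had 6.89 RPKM (612 fragments) and 7.07 RPKM (633 fragments), a log2 ratio of 0.04 (-0.12 to 0.20). Bhlhe40 was 6.63-fold above Bhlhe41 in control and 6.89-fold above it in CUMS. The repressors of the E-box and of the D-box thus parted, and the log2 ratio of Bhlhe40 exceeded that of Nfil3 by 0.72 (0.38 to 1.06).

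Counted together, 4 of the 9 genes were higher and 5 were lower in CUMS, with a median log2 ratio of -0.0057 against -0.015 over all genes of at least 0.5 RPKM. Past a 1.5-fold difference, the fold that the study used, there were 0 of 9 genes higher and 1 of 9 lower, Nfil3. With a pseudocount of 0.5 or 1 added to each mean, Nfil3 was no longer past it (log2 ratio -0.57 and -0.52). Among all 14257 genes of at least 0.5 RPKM, 2.78% were past this fold with the higher level in CUMS and 4.42% with the lower level. Among the 9397 genes of at least 5 RPKM these shares were 0.319% and 1.28%, and Nfil3 is in that set through its control level alone. Counting intervals lay above 0 for 2 of 9 genes (Dbp and Bhlhe40), against 12.5% of all genes of at least 0.5 RPKM, and under 0 for 3 of 9 (Clock, Tef and Nfil3), against 16.8%. An interval off 0 is easier to reach for a well covered gene, and the 9 genes had from 302 to 17591 fragments.

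**Figure D4:**
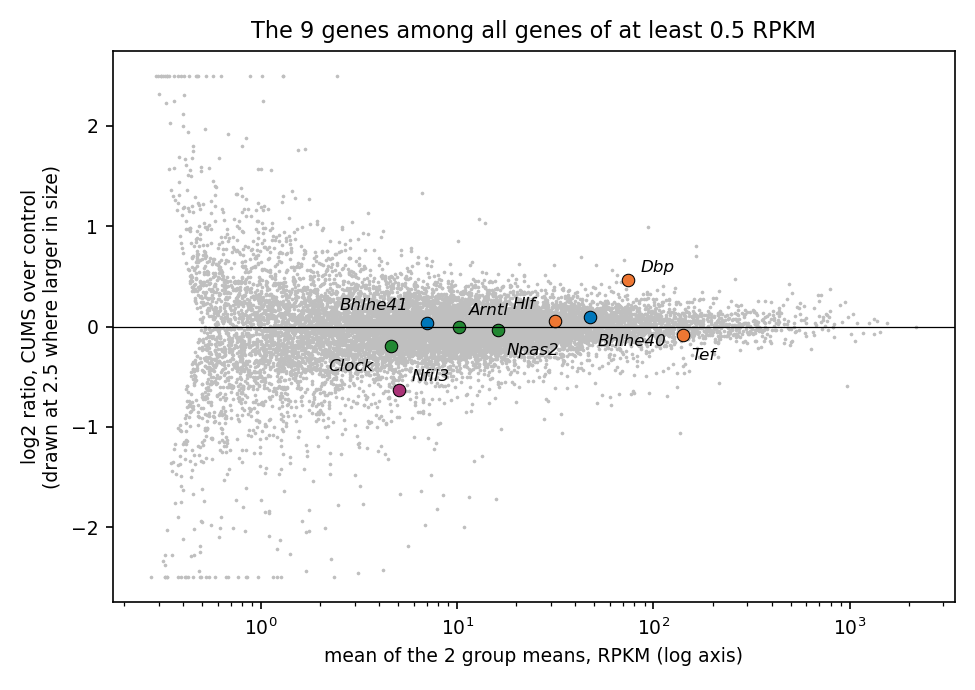
Each grey point is a gene of at least 0.5 RPKM in either group, placed by the mean of its group means (RPKM, log axis) and its log2 ratio of CUMS over control, drawn at 2.5 where the ratio is larger in size; the 9 genes are colored by role. Dbp lies above nearly all genes of its level and Nfil3 near the lower edge at its level, and the other 7 genes lie in the cloud.

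Promoters are shown because Dbp and Nfil3 stood apart in opposite directions and because the factors of the clock are known by the DNA elements they bind. RefSeq promoters on GRCm38.p6 (250 bases before to 50 after a start site) were found for 8 of the 9 genes, with 12 promoters in all; Bhlhe40 had none in the table. They were searched on both strands for the E-box CACGTG, its variant CACGTT, the D-box TTATGTAA or TTACGTAA, the core TAGGTCA or TGGGTCA of the retinoid orphan element, which Nr1d1 binds, and the cAMP element TGACGTCA. A match is a run of letters and not a shown binding site. The promoter of Nfil3 lies at chr13:52980990-52981289 on the minus strand, the second promoter of Arntl at chr7:113207261-113207560 on the plus strand, and that of Dbp at chr7:45704997-45705296 on the plus strand. Each is printed 5′ to 3′ along its gene, with matches in capitals.
Nfil3 promoter: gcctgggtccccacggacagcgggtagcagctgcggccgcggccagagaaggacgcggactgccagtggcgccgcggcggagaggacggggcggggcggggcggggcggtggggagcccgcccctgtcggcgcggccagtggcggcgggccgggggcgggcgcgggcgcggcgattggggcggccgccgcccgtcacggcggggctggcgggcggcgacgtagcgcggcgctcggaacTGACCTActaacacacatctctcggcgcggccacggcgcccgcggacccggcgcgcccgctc
Arntl second promoter: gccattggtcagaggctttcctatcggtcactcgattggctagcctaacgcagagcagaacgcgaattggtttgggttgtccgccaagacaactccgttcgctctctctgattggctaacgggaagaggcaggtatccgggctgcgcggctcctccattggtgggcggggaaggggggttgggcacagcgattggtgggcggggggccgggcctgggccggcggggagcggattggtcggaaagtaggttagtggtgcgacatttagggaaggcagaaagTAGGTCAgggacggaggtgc
Dbp promoter: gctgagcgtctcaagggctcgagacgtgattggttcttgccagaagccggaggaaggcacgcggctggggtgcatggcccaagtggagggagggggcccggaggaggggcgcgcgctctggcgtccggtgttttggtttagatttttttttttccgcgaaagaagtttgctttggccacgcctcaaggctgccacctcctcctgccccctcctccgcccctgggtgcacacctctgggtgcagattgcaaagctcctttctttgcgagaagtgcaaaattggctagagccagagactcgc

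Nfil3 and Arntl both held the retinoid orphan core TAGGTCA. In Nfil3 it stood on the opposite strand of the gene and so reads TGACCTA above, with its first printed base 12 bases before the start site, and in Arntl it began at base 31 after the start site. This core is found in 6.45% of the 32851 promoters. Both genes are known targets of the Nr1d1 repressor. Nfil3 had a log2 ratio of -0.63, Arntl one of -0.0057 and Nr1d1 itself one of 0.66. The promoter of Dbp held none of the searched letters within this window. Nor did the first promoter of Arntl.

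E-boxes stood in both promoters of Tef and in that of Bhlhe41, and 7.15% of all promoters hold one. The cAMP element stood in the promoter of Hlf, with 1.79% of all promoters holding it. These matches are printed with 15 bases on either side, from chr15:81802531-81802566 and chr15:81811261-81811296 on the plus strand for Tef, chr6:145865553-145865588 on the minus strand for Bhlhe41 and chr11:90390904-90390941 on the minus strand for Hlf.
Tef first promoter: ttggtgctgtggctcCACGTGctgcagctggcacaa
Tef second promoter: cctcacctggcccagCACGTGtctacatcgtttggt
Bhlhe41 promoter: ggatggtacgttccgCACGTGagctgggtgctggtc
Hlf promoter: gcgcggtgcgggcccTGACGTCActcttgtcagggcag

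The genes with an E-box in the window, Tef and Bhlhe41, had log2 ratios of -0.08 and 0.04, and Hlf had one of 0.05. The E-box variant is in 4.68% and the D-box in 1.06% of all promoters, and neither was in the 12 promoters searched. The promoter of Npas2 and the 3 promoters of Clock held none of the searched letters.

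Other genes of the clock were set beside the 9. Of 17 repressors, nuclear receptors and kinases of the clock, 16 reached 0.5 RPKM, of which 8 were higher and 8 lower in CUMS (median log2 ratio -0.018). Ciart, a repressor of the CLOCK and BMAL1 pair that the table lists as Gm129, had 8.29 RPKM in control and 17.4 RPKM in CUMS, a log2 ratio of 1.07. Nr1d1, which peaks near Dbp in the day, had 54.9 and 87.0 RPKM (0.66), and its relative Nr1d2 had 19.1 and 21.4 RPKM (0.16). Ciart and Nr1d1 are among the raised genes that the study reported from these libraries, so that their direction is no separate evidence. Cry1, whose protein blocks the positive arm and whose transcripts peak late in the cycle, had 10.3 and 7.47 RPKM (-0.46). Per1 had 40.0 and 40.1 RPKM (0.0038). The clock receptor Rora was too low to place, at 0.225 and 0.415 RPKM (6 and 10 fragments).

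Of 8 output genes of the clock, 7 reached 0.5 RPKM, with 3 higher, 4 lower, 0 past 1.5-fold and a median of -0.012. The deubiquitinase gene Usp2 had 21.8 RPKM in control and 29.4 RPKM in CUMS, a log2 ratio of 0.43, close to that of Dbp. Pdxk, the pyridoxal kinase gene that PAR bZIP factors are known to drive in brain, had 68.9 and 56.7 RPKM (-0.28). Klf9 had 25.9 and 30.1 RPKM (0.22).

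Relatives by protein family gave a mixed picture. Of 11 other bHLH-PAS genes, 9 reached 0.5 RPKM, with 6 higher and 3 lower and a median of 0.11. The one past 1.5-fold was Npas4, an activity-induced gene (25.0 and 14.9 RPKM, -0.75). Arnt had a log2 ratio of -0.22 and Npas1 one of 0.17. Of 6 C/EBP relatives of the bZIP factors, 5 reached 0.5 RPKM, with 1 higher and 4 lower and 0 past 1.5-fold (median -0.075). Among those of at least 5 RPKM, Ddit3 had a log2 ratio of -0.24 and Cebpg one of -0.07. Of 7 bHLH-Orange relatives, 6 reached it, with 2 higher, 3 lower and 1 equal (median -0.035). Hes6 had a log2 ratio of 0.26, Hey1 one of 0.18 and Hes5 one of -0.07, and Heyl, at 2.46 and 1.35 RPKM, was the one past 1.5-fold.

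Nfil3 and Bhlhe40 also respond to signals other than the clock, and lists for these were counted as well. Of 16 activity-induced genes, 16 were lower in CUMS, with a median of -0.60 beside the -0.63 of Nfil3. Past 1.5-fold lower were 8 of them, against 4.42% of all genes of at least 0.5 RPKM. The medians of the GABAergic neuron markers (-0.69) and of the oligodendrocyte and myelin markers (-0.56) also lay near the value of Nfil3. Among the activity-induced genes, Arc had a log2 ratio of -1.06, Fos one of -1.06 and Ier2 one of -0.85. Arc, Fos, Npas4 and Dusp1 of this list are among the lowered genes that the study reported from these libraries. The direction of these genes is therefore no separate evidence. Bhlhe40, at 0.09, lay above the highest value of the activity-induced list (-0.24). Of 14 glucocorticoid-induced genes, 6 were higher and 8 lower (median -0.015), with Cdkn1a at -0.68, Sgk1 at 0.51 and Mt1 at -0.24. The part of neuronal activity in the level of Nfil3 was not tested.

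**Figure D5:**
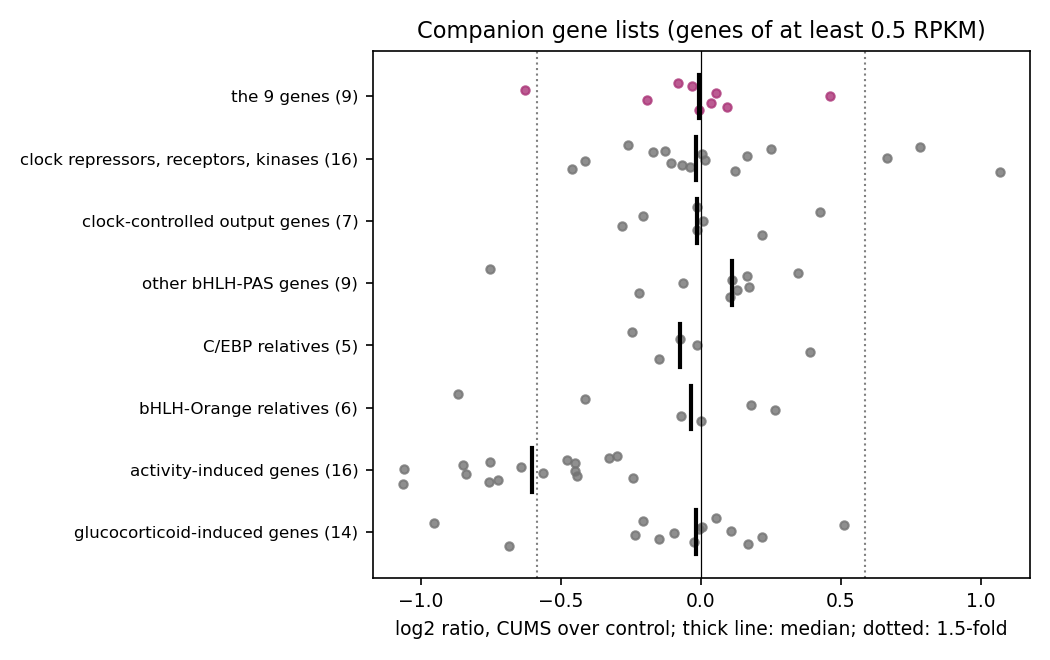
Log2 ratio of CUMS over control for each gene of at least 0.5 RPKM in the 9 genes and in 7 companion lists, with the number of genes in brackets, the median as a thick line and 1.5-fold as dotted lines. All 16 activity-induced genes lie left of 0 (median -0.60), whereas the medians of the other companion lists lie between -0.075 and 0.11.

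Cell type markers differed between the groups too, and their part in the values above was not tested. The markers of each cell type or region were summed. The sum came to 1567 RPKM in control against 1883 RPKM in CUMS for neocortical excitatory neurons (8 of 8 markers higher, median log2 ratio 0.32). It was 426 and 301 RPKM for GABAergic neurons (4 of 4 lower, -0.69) and 1866 and 1266 RPKM for oligodendrocytes and myelin (7 of 7 lower, -0.56). It was 315 and 271 RPKM for striatum (6 of 6 lower, -0.27), 50.2 and 17.1 RPKM for septum and hypothalamus (6 of 7 counted lower, -1.48), and 31.0 and 12.8 RPKM for olfactory bulb (5 of 5 lower, -1.61). Of the septum and hypothalamus markers, Pmch was higher in CUMS (0.445 and 0.71 RPKM). Hcrt (0.24 and 0.465 RPKM) and Avp (0.14 and 0.145 RPKM) were not lower but stayed under 0.5 RPKM and were not counted. Ngb, Magel2, Peg10 and Prkcd are among the lowered genes that the study reported from these libraries. So are Th, Doc2g, Gad1, Gad2, Slc32a1, Mbp, Mobp and Cldn11 of the other lists. The direction of these markers is therefore no separate evidence. Red blood cell genes summed to 222 and 385 RPKM (5 of 5 higher, 0.97). Of these, Hba-a1, Hba-a2 and Hbb-b1 are likewise among the raised genes that the study reported. Sums for astrocytes (475 and 478 RPKM, 4 higher and 2 lower, median 0.06) and microglia (87.7 and 95.4 RPKM, 3 higher and 2 lower, median 0.14) were closer to equal. Single markers of these lists differed more, with Gfap of astrocytes at -0.41 and P2ry12 of microglia at 0.54. No marker was listed at 0, and the cortical markers Slc17a7 and Camk2a were high in both groups, as the labelled tissue should have them. Log2 ratios of the single excitatory neuron markers ran from 0.21 to 0.65, a range that holds the 0.46 of Dbp.

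Whether the counting used strand was not given in the sources used here, so that genes on opposite strands may not be told apart where their exons overlap. Sphk2, on the opposite strand, covers 539 bases or 18.0% of the annotated exon bases of Dbp, and it had 18.6 RPKM in control and 17.8 RPKM in CUMS, values that lay below those of Dbp and close to each other. An antisense gene, Gm43909, which is not listed in the table, covers 19.0% of the exon bases of Bhlhe41. Overlaps of Arntl, Bhlhe40 and Tef with other genes came to at most 2.51% of their exon bases, and Clock, Npas2, Hlf and Nfil3 had none.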

How the data were processed

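The libraries, 2 of control and 2 of CUMS mice, were assigned to groups from the sample titles. RNA was isolated per mouse, but whether mice were pooled for a library is not stated. The authors mapped clean reads to mm10 with TopHat 1.0.12 and Bowtie 0.11.3 and counted uniquely aligned reads; the gene annotation and strand use are not given in the sources used here. The deposited values are RPKM, averaged by the authors over the libraries of each group, with 0 written as 0.01, and the gene length in bases. The table also holds the authors' own log2 ratio and NOISeq probability, which were not used.

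The log2 ratio of the means was computed with no pseudocount. Fragments were estimated from the product of mean and gene length, which in low genes falls on steps of 1 fragment. The step was sought between 20 and 200, using products below 350 of genes under 1000 bases, and 86.7% of control and 86.2% of CUMS products were whole multiples to within 0.15 steps. The depth found this way is well below the read totals the study gives, and the reason was not found. At a greater true depth the intervals would be narrower. Intervals at 95% are exact Clopper-Pearson for log2 ratios, exact Poisson for levels and normal approximations for sums and differences between genes; they cover counting error only. Depth and interval code was tested on simulated data. Since single libraries were not analysed here, the planned limma test was not run.

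The 9 genes and the lists were chosen with earlier results of these data known. Named are the 9 genes, up to 3 genes of at least 5 RPKM with the largest log2 ratio in each list, and Nr1d1, Nr1d2, Rora, Per1 and Ciart. Outside this rule, Heyl and 3 rhythm-annotated genes were named as the genes behind a count. Slc17a7 and Camk2a were named as a check of the tissue, and Sphk2 and other neighbours for shared exons. Also outside it are Dusp1, further cell type markers and the genes above Dbp in its range of levels. One further gene is not reported here. Genes of similar pattern were not sought, since 2 means give 1 ratio. Genes within 2-fold of a level were counted after the values had been seen. Spans are RefSeq GRCm38.p6, exon overlaps GENCODE M21. Python 3.11.15, numpy 2.4.6, pandas 2.3.3 and scipy 1.17.1 were used.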

Additional observations from a re-analysis of the deposited data

How the results depend on the processing

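No paired analysis was possible because each gene has just its 2 group means, and for the same reason no library could be left out. Over 30 results, 160 values under alternatives were computed, of which 154 stayed within the limits set for them, 6 moved and 0 reversed a called direction. Across 0 went 6 small values, at most 0.09 in size there: the log2 ratio of Arntl, the median of the 9 genes (under 2 settings) and the medians of the clock repressor, output and bHLH-Orange lists. The number of the 9 genes past the fold was 1 (Nfil3). It was 0 with a pseudocount of 0.5 or of 1, 0 with a fold of 2, and 2 with a fold of 1.2, which added Dbp, so that Nfil3 lies close to this limit. The number of counting intervals off 0 was 5, and it was 3 at 0.5 times the estimated depth, where Clock and Bhlhe40 were lost. Setting the median log2 ratio to 0 (a shift of 0.015) took the interval of Clock across 0, and rescaling to an equal total (a shift of -0.0076) did so for Bhlhe40. Dbp, Tef and Nfil3 kept theirs off 0 under every depth and scaling tried. The limits were the counting interval for ratios, 1.5 times for counts, and for list medians the wide range between the medians of their genes' interval bounds. Within the last, the olfactory bulb median went from -1.61 to -0.95 with a pseudocount of 0.5, and with genes of at least 5 RPKM the C/EBP median went from -0.075 to -0.16 and the bHLH-PAS median from 0.11 to 0.024. The olfactory bulb median was -0.68 with a pseudocount of 1. Depth limits Nfil3 most.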

Other observations

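Beyond the lists above, the table annotates 72 genes with a GO process term for rhythm or circadian rhythm or behavior, the 9 genes left out but some genes of those lists included. This list was added after the data had been seen. Of these, 59 reached 0.5 RPKM, with 25 higher and 33 lower in CUMS and a median log2 ratio of -0.039. Counting intervals lay above 0 for 4 and under 0 for 19 of them. Past 1.5-fold, 4 were lower. These, named after their values were seen, were Th, the rate-limiting enzyme of dopamine synthesis and one of the olfactory bulb markers (7.78 RPKM in control and 2.44 RPKM in CUMS), Erbb3 (4.33 and 1.93 RPKM), Gnrh1 (2.35 and 1.04 RPKM, on 18 and 8 fragments) and the serotonin receptor gene Htr7 (3.59 and 1.78 RPKM).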
